A study of Mus musculus with 27 samples.

Results

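The 9 genes described here handle iron and haem or defend cells against oxidants. They are Hmox1, Fth1, Ftl1, Tfrc, Blvrb, Txnrd1, Gclm, Srxn1 and Prdx1, taken by their symbols from a table of 9996 genes, and all 9 are in it. RNA was measured in 27 libraries of neutrophils and macrophages that had been sorted by flow cytometry from mammary tumours. The tumours arose in K14cre;Cdh1F/F;Trp53F/F mice, in which a Cre recombinase driven by the keratin 14 promoter deletes E-cadherin and p53 in epithelial cells, so that all groups share these alleles and the sorted cells are host cells outside the targeted lineage. There were 4 treatments: control antibody, anti-CSF-1R (an antibody against the receptor of CSF-1, a macrophage growth factor), cisplatin (a drug that crosslinks DNA) given together with control antibody, and both agents, cisplatin and anti-CSF-1R, named the combination. In this order macrophages had 4, 2, 4 and 2 libraries and neutrophils had 4, 4, 3 and 4. Tissue was taken 1 day after injection 2 of 2 where cisplatin was given, and at a tumour size of 100 mm2 where it was not. Time of collection therefore cannot be told apart from cisplatin in any comparison of mice with the drug and mice without it. The labels give no ages and do not say that each library came from its own mouse. The spread behind the p-values is that between these samples, and it may be technical.

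Ferritin, a shell built of heavy chains (Fth1) and light chains (Ftl1), stores iron inside cells, and the transferrin receptor (Tfrc) imports it. Haem oxygenase 1 (Hmox1) opens haem into biliverdin, carbon monoxide and iron, and biliverdin reductase B (Blvrb) is a flavin and biliverdin reductase. Thioredoxin reductase 1 (Txnrd1), the modifier subunit of glutamate-cysteine ligase (Gclm), sulfiredoxin (Srxn1) and peroxiredoxin 1 (Prdx1) keep thiols reduced and remove peroxides, and their genes are known targets of the transcription factor NRF2, as are Hmox1 and the ferritin genes. Macrophages recycle iron from haem, and neutrophils make oxidants to kill microbes.

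The members carry 2 kinds of known control sequence, shown here because the ferritin and transferrin receptor genes are controlled in part after transcription (ferritin at translation, Tfrc at mRNA stability) and the antioxidant genes in part through a promoter motif. Iron-responsive elements are short hairpins in the mRNA that iron regulatory proteins bind when iron is low, which blocks translation from a 5′ UTR and protects the mRNA from a 3′ UTR. Each one below is 17 bases long, has the CAGTGN loop in capitals, and was found in the mouse GRCm38 genome through GENCODE vM21 transcripts as an unpaired C and 5 bases before the loop that pair with 5 bases after it. Fth1 and Ftl1 each had 1 in the 5′ UTR and Tfrc had 4 in the 3′ UTR. The pattern stood anywhere in a transcript in 1.34% of 21901 protein-coding genes.
Fth1 5′ UTR, chr19:9982738-9982754, plus strand: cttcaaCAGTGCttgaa
Ftl1 5′ UTR, chr7:45459785-45459801, minus strand: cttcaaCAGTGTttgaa
Tfrc 3′ UTR, chr16:32631225-32631241, plus strand: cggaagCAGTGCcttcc
Tfrc 3′ UTR, chr16:32631604-32631620, plus strand: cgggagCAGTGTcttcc
Tfrc 3′ UTR, chr16:32631669-32631685, plus strand: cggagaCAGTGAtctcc
Tfrc 3′ UTR, chr16:32631716-32631732, plus strand: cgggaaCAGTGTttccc

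NRF2 is known to bind the antioxidant response element, whose core was searched as TGACNNNGC on both strands of RefSeq promoter windows of 300 bases (250 before and 50 after a gene's start, build GRCm38.p6). Of the 8 members with a window, 4 held it in a window, as did 14% of 27025 genes and 12.4% of all 32851 windows. The core lay 134 bases before the start of Gclm, 133 before that of Prdx1, 92 before 1 start of Txnrd1 and 28 after that of Srxn1. These are the gene starts that define the RefSeq windows, and for Prdx1, Srxn1 and Txnrd1 they differ from the gene positions given below. The Txnrd1 window with the core, 10:82858956-82859255, lies inside the gene. The Txnrd1 window at the start of the gene position, 10:82833701-82834000, held 0 cores. In the 3 stretches printed, the core lies on the minus strand of the gene and its letters on the plus strand are in capitals. A match is a description of letters and not of binding.
Gclm, chr3:122245413-122245441, plus strand: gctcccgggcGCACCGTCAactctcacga
Prdx1, chr4:116685456-116685484, plus strand: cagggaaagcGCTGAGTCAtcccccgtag
Txnrd1, chr10:82859104-82859132, plus strand: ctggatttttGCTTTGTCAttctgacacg

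All values are normalised read counts as the authors deposited them, with lost decimal points restored from the whole-read step of each library. The decoded reads came to 1298125 to 7495846 per macrophage library and 998310 to 3283132 per neutrophil library. Of the 243 member values, 171 allowed 1 place for the point, and 11 could not be placed and were left out of means and fits, so n counts decoded libraries. Markers followed the sorting labels for the most part. All 11 neutrophil markers in the table were lower in macrophages under control antibody, with summed levels of 254.9 to 1567, and 11 of 12 macrophage markers were higher there. The exception was Cd14, at a median of 16390 in neutrophils and 2879 in macrophages. C1qb, a complement gene of macrophages, had medians of 149.6 in neutrophils and 2433 in macrophages. Markers of other cells were also seen in neutrophil libraries. The 5 eosinophil markers in the table summed to 147.2 to 767.7 there and to 6.659 to 217.4 in macrophage libraries. B cell and fibroblast marker sums reached 445.1 and 822.8 in neutrophil libraries, and 17.53 and 319.7 in macrophage libraries. The part of such cells in the cell type differences was not tested. Of red-cell genes, Hbb-b1, a beta-globin gene looked up after the marker lists were set, was at the lowest listed value in 10 of 12 macrophage libraries (highest 2.25) and in 7 of 13 decoded neutrophil libraries (highest 32.2, in cisplatin replicate 2). Macrophage anti-CSF-1R replicate 2 stood apart: its median correlation with the other macrophage libraries was 0.912, against 0.943 to 0.959 for the others, and its 9 mast cell and basophil markers summed to 9567, against 9.08 to 84.32 in the other macrophage libraries. Combination replicate 2 and cisplatin replicate 2 of the neutrophils held 45.2% and 18.6% of the first principal axis of that cell type.

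More members passed the test between cell types than between treatments. Under control antibody, Prdx1 and Blvrb were higher in macrophages, and Tfrc, Txnrd1, Fth1 and Gclm were higher in neutrophils, so that 6 of 9 members passed the threshold, an adjusted p of 0.05 in limma. Of all genes tested in that comparison 51.3% passed, so the members' share is near the background. Under anti-CSF-1R 3 of 9 passed (Prdx1 higher in macrophages, Tfrc and Txnrd1 lower) where 42.8% of all genes did. Under cisplatin the 6 genes that had passed under control antibody passed in the same directions, where 56.8% of all genes did. Under the combination 3 of 9 passed, Prdx1 higher and Tfrc and Txnrd1 lower in macrophages, where 46.7% of all genes did. The median log2 difference of the members, macrophage minus neutrophil, was -0.57, -0.06, -0.26 and -0.92 in the order control, anti-CSF-1R, cisplatin and combination, and that of all genes was 0.13, 0.10, 0.13 and 0.12. In bulk RNA of a sorted population, fewer cells that express a gene and less of its RNA per cell cannot be told apart.

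**Figure D1:**
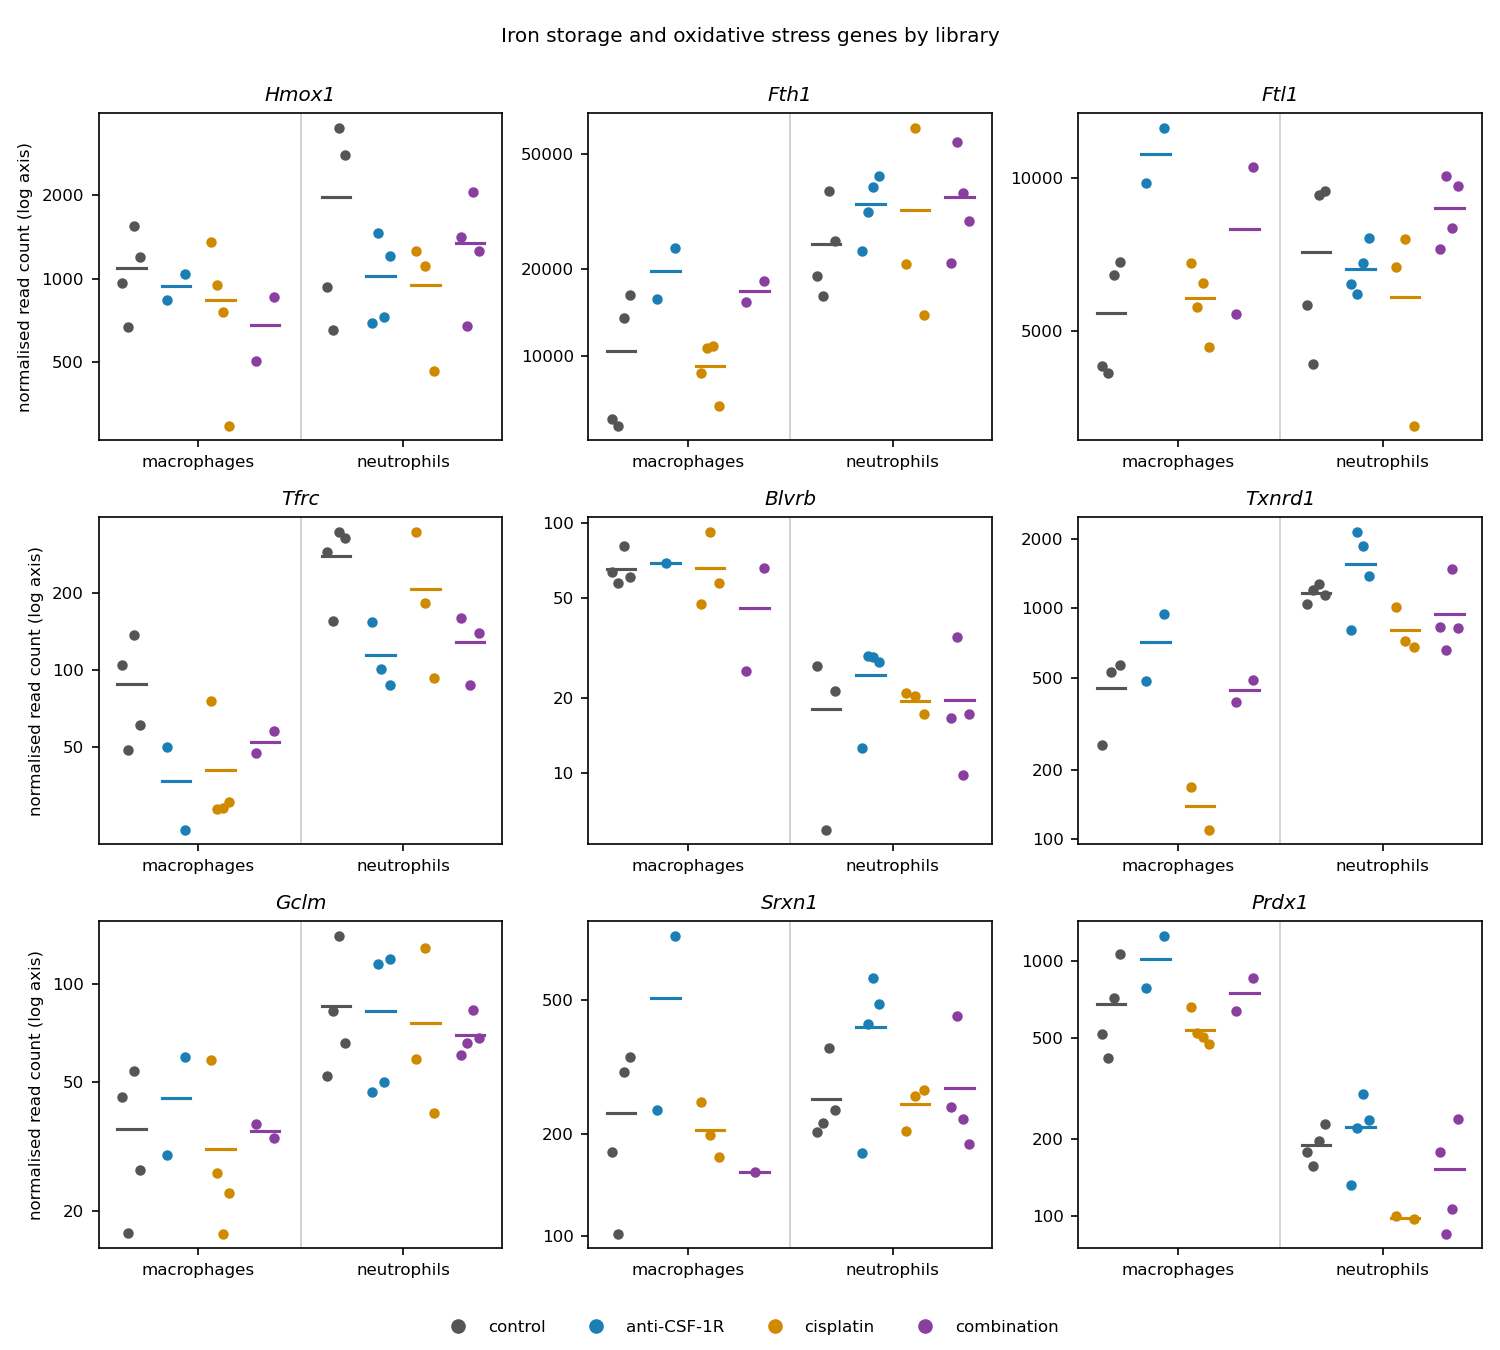
Normalised read count (log axis) of each of the 9 genes in every library with a decoded value, with macrophages on the left and neutrophils on the right of each panel, colours for the 4 treatments and horizontal lines at the group means. Prdx1 and Blvrb sit higher in macrophages, Tfrc and Txnrd1 sit higher in neutrophils, and the Hmox1 and Srxn1 points of the cell types overlap.

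Fth1 (19:9980598-9985098) carries the ferroxidase site of ferritin and was higher in neutrophils under control antibody and cisplatin. In macrophages it read 6035, 5724, 13482 and 16233 under control antibody, 15706 and 23545 under anti-CSF-1R, 8720.2, 10618, 10759 and 6669 under cisplatin, and 15323 and 18151 under the combination. In neutrophils it read 18830.1, 16032.5, 37334 and 24906 under control antibody, 23040.1, 31370.4, 38328 and 41754 under anti-CSF-1R, 20777, 61542 and 13811 under cisplatin, and 20903, 55169, 36517 and 29299 under the combination. The cell types overlapped under control antibody, where 1 macrophage library exceeded the lowest neutrophil library, and under anti-CSF-1R, and they did not overlap under cisplatin or the combination. The mean under control antibody was 10368.5 ± 5305 (SD, n = 4) in macrophages and 24276 ± 9461 (SD, n = 4) in neutrophils, a log2 difference of -1.30 (SE 0.43, adjusted p = 0.0139). Under cisplatin the log2 difference was -1.53 (SE 0.47, adjusted p = 0.00717). Neither call was stable. Without macrophage control replicate 1, macrophage control replicate 2 or neutrophil control replicate 3 the control difference was -1.09 (adjusted p = 0.0555), -1.07 (0.0591) and -1.07 (0.0595), and without neutrophil cisplatin replicate 2 the cisplatin difference was -0.91 (adjusted p = 0.113). Quantile normalisation, which gives all libraries one distribution, left -0.35 (adjusted p = 0.35) and -0.29 (0.479) for this gene at the top of the range. Under anti-CSF-1R and the combination the intervals of the difference ran from -1.86 to 0.32 and from -2.08 to 0.09.

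Ftl1 (7:45457944-45459884), the light chain that helps the iron core form, did not pass between the cell types under any treatment. Its macrophage values were 4259.8, 4140.3, 6445 and 6848 under control antibody, 9773 and 12575 under anti-CSF-1R, 6814, 5579, 6212 and 4649 under cisplatin, and 5393 and 10535 under the combination. The neutrophil values were 5624, 4315, 9257 and 9461, then 6181, 5908, 6802.5 and 7637, then 6677, 7608 and 3257, and then 7252, 10117, 7982 and 9643 in the same order of treatments. Only under anti-CSF-1R did the cell types not overlap, with both macrophage libraries above all 4 neutrophil libraries (log2 difference 0.75, 95% interval -0.02 to 1.51, adjusted p = 0.107). Without macrophage anti-CSF-1R replicate 2 that difference was 0.57 (adjusted p = 0.39). The intervals were -0.99 to 0.26 under control antibody, -0.61 to 0.74 under cisplatin and -0.97 to 0.56 under the combination. The macrophage anti-CSF-1R mean, 11174 ± 1981 (SD, n = 2), was the highest of the 8 group means and exceeded the next, 8748 ± 1354 (SD, n = 4) in neutrophils under the combination, by more than the larger SD. Ferritin genes have processed pseudogenes (2 of Ftl1 are named in the annotation), and the labels do not say how reads shared with them were counted.

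The balance of the ferritin chains followed the cell type. The ratio of Fth1 to Ftl1 reads, which is not corrected for length and so can be compared only between libraries, was 1.417, 1.382, 2.092 and 2.37 in control macrophages and 3.348, 3.716, 4.033 and 2.632 in control neutrophils. It was 1.607 and 1.872 against 3.728, 5.31, 5.634 and 5.467 under anti-CSF-1R, and 1.28, 1.903, 1.732 and 1.435 against 3.112, 8.089 and 4.24 under cisplatin. Under the combination it was 2.841 and 1.723 in macrophages and 2.882, 5.453, 4.575 and 3.038 in neutrophils. The cell types did not overlap within any treatment, though they nearly touched under the combination. Over all libraries the ratio ran from 1.28 to 2.841 in 12 macrophage libraries (median 1.727) and from 2.632 to 8.089 in 15 neutrophil libraries (median 4.033). No test was made of this ratio, which was chosen after the values were seen.

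**Figure D2:**
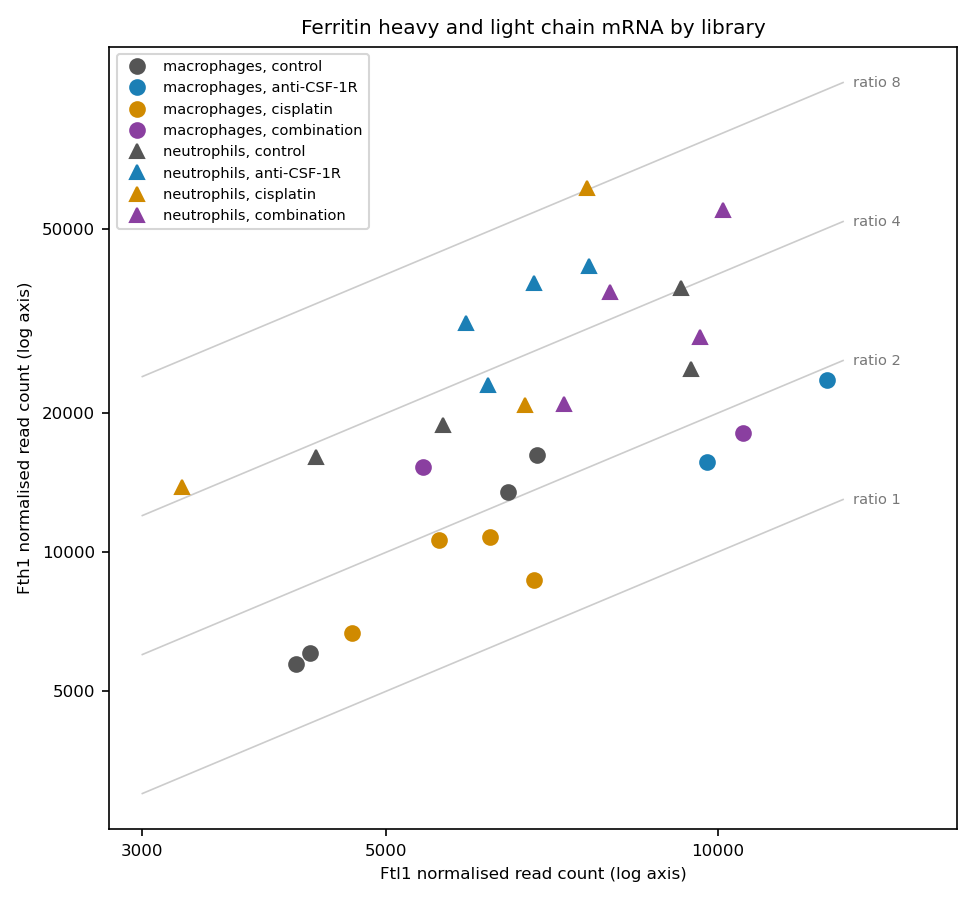
Fth1 against Ftl1 normalised read count (both axes log), each point 1 library, with circles for macrophages, triangles for neutrophils, colours for treatments and grey lines of equal Fth1 to Ftl1 ratio. Macrophage ratios lie between 1.28 and 2.841 and neutrophil ratios between 2.632 and 8.089.

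Tfrc (16:32608920-32632794), the receptor that takes up transferrin-bound iron, was higher in neutrophils under all 4 treatments. In macrophages it read 105, 48.7, 137 and 60.8 under control antibody, 49.97 and 23.7 under anti-CSF-1R, 75.3, 28.4, 28.8 and 30.2 under cisplatin, and 47.2 and 57.6 under the combination. In neutrophils it read 292, 155, 348 and 331 under control antibody, 154, 101 and 87.4 in the 3 decoded anti-CSF-1R libraries, 349, 183 and 92.7 under cisplatin, and 160.0, 87.1 and 139 in the 3 decoded combination libraries. The decoded values of the cell types did not overlap within any treatment. Under the combination this depends on the library left out, neutrophil combination replicate 3, whose value was 37.6 (probability 0.858) or 376, and 37.6 lies below both macrophage libraries. Neutrophil anti-CSF-1R replicate 1 was left out likewise, at 206 (probability 0.671) or 20.6, and 20.6 lies below both macrophage libraries. The log2 difference, macrophage minus neutrophil, was -1.72 (SE 0.40, adjusted p = 0.00095) under control antibody and -2.26 (SE 0.43, adjusted p = 0.00011) under cisplatin, and both passed in all alternatives. It was -1.66 (SE 0.51, adjusted p = 0.0113) under anti-CSF-1R, where leaving out macrophage anti-CSF-1R replicate 2 gave -1.13 (adjusted p = 0.178). Under the combination it was -1.24 (SE 0.51, adjusted p = 0.0485), a call that 10 of 20 alternatives lost. Among those, leaving out macrophage combination replicate 1 or 2, or neutrophil combination replicate 1, 3 or 4, gave adjusted p = 0.206, 0.111, 0.124, 0.0511 and 0.0986, and the most probable places gave -0.82 (adjusted p = 0.228). With undecided values at their lower place the anti-CSF-1R difference was -1.06 (adjusted p = 0.176).

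Hmox1 (8:75093621-75100589), the inducible haem-degrading enzyme, did not separate the groups. The macrophage values were 967, 668, 1538 and 1197 under control antibody, 840.3 and 1035 under anti-CSF-1R, 1348, 949, 759 and 296 under cisplatin, and 506 and 856 under the combination. The neutrophil values were 930.1, 655, 3478 and 2771 under control antibody, 690.0, 1462, 727 and 1206 under anti-CSF-1R, 1253, 1114 and 466 under cisplatin, and 1405, 674, 2046.5 and 1255 under the combination. The 2 highest libraries were control neutrophils, but the other 2 of that group lay among the macrophages, and the cell types overlapped under every treatment. The means ran from 681 ± 247 (SD, n = 2) in combination macrophages to 1958.5 ± 1382 (SD, n = 4) in control neutrophils, and no neighbouring pair in the order of the 8 means differed by more than the larger SD of the pair. The 95% intervals of the log2 difference between cell types were -1.55 to 0.40, -1.25 to 1.14, -1.30 to 0.81 and -2.12 to 0.27 for control, anti-CSF-1R, cisplatin and combination, and each of them includes a level 2-fold lower in macrophages as well as no difference.

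Blvrb (7:27447978-27466144), the other haem pathway enzyme among the members, was low in both cell types and higher in macrophages. It read 63.6, 57.6, 81.3 and 60.8 in control macrophages and 26.7, 5.91 and 21.3 in the 3 decoded control neutrophil libraries, without overlap (log2 difference 2.03, SE 0.44, adjusted p = 0.000601). Under cisplatin the decoded macrophage values were 47.7, 92.3 and 57.8 and the neutrophil values 20.9, 20.3 and 17.1, again without overlap (log2 difference 1.66, SE 0.47, adjusted p = 0.00469). That call depended on the decoding, since setting undecided values at their lower place gave 0.93 (adjusted p = 0.252). Under anti-CSF-1R only 1 macrophage library was decoded, at 69.5, against 12.5, 29.3, 29.0 and 27.7 in neutrophils, and the fit assumed that it varied like the other groups (log2 difference 1.53, adjusted p = 0.0588). The other macrophage library was 139 or 13.9, and with undecided values at the higher or the lower place the difference was 2.03 (adjusted p = 0.00168) or 0.41 (0.699). Under the combination 25.5 and 66.1 in macrophages overlapped with 16.6, 34.9, 9.80 and 17.2 in neutrophils (log2 difference 1.17, adjusted p = 0.0586), and without neutrophil combination replicate 2 or macrophage combination replicate 1 the difference was 1.48 (adjusted p = 0.0212) or 1.84 (0.0287).

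Txnrd1 (10:82833951-82897712), the NADPH-dependent enzyme that recharges thioredoxin, was higher in neutrophils under all 4 treatments. Its decoded macrophage values were 256, 529.5 and 567 under control antibody, 484.5 and 944 under anti-CSF-1R, 168 and 110.1 under cisplatin, and 394 and 488 under the combination. Its neutrophil values were 1037, 1200.3, 1273 and 1140.4 under control antibody, 806, 2137, 1861 and 1379 under anti-CSF-1R, 1009, 719 and 682 under cisplatin, and 827, 660.4, 1475 and 823 under the combination. The cell types overlapped only under anti-CSF-1R. The log2 difference, macrophage minus neutrophil, was -1.44 (SE 0.33, adjusted p = 0.00105) under control antibody and -2.53 (SE 0.40, adjusted p = 1.42e-05) under cisplatin, and both passed in all alternatives. It was -1.10 (SE 0.38, adjusted p = 0.0221) under anti-CSF-1R and -1.04 (SE 0.38, adjusted p = 0.028) under the combination, calls that 7 of 20 and 8 of 20 alternatives lost. Leaving out macrophage anti-CSF-1R replicate 1 gave -0.62 (adjusted p = 0.334), and neutrophil anti-CSF-1R replicate 2 or 3 gave -0.91 (0.0687) or -0.98 (0.0524). Leaving out macrophage combination replicate 1 or 2, or neutrophil combination replicate 3, gave -0.89 (adjusted p = 0.179), -1.19 (0.0707) and -0.80 (0.0863), and quantile normalisation gave -0.48 (0.324) under anti-CSF-1R and -0.19 (0.711) under the combination.

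Prdx1 (4:116685544-116700822), an abundant peroxidase that thioredoxin recharges, was the member with the most regular difference and went the opposite way to Txnrd1. In macrophages it read 517, 416, 715 and 1069 under control antibody, 785 and 1258 under anti-CSF-1R, 661, 521, 503 and 472 under cisplatin, and 640.1 and 860.5 under the combination. In neutrophils it read 178, 157, 196 and 229 under control antibody, 132, 221, 299.99 and 239 under anti-CSF-1R, 99.9 and 97.0 in the 2 decoded cisplatin libraries, and 179, 85.2, 106 and 239.6 under the combination. Every macrophage library, from 416 upwards, exceeded every decoded neutrophil library. The log2 difference was 1.76 (SE 0.30, adjusted p = 3.69e-05), 2.21 (SE 0.37, adjusted p = 4.12e-05), 2.43 (SE 0.37, adjusted p = 6.23e-06) and 2.39 (SE 0.37, adjusted p = 1.27e-05) under control antibody, anti-CSF-1R, cisplatin and the combination. It passed in all alternatives tried in each of the 4 comparisons. In the order of the 8 means the 4 macrophage groups came first, and the step from the last of them, 539 ± 83.7 (SD, n = 4) under cisplatin, to the first neutrophil group, 223 ± 69.3 (SD, n = 4) under anti-CSF-1R, exceeded the larger SD.

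Gclm (3:122245557-122270732), whose product makes glutamate-cysteine ligase more active in glutathione synthesis, ran from 17.003 to 59.5 in macrophages (median 31.5, n = 12) and from 39.9 to 141 in neutrophils (median 65.8, n = 15). Under control antibody it read 44.9, 17.04, 53.7 and 26.8 in macrophages and 51.8, 82.8, 141 and 65.7 in neutrophils, which overlapped by 1 library (log2 difference -1.26, SE 0.42, adjusted p = 0.0132). Under cisplatin 58.3, 26.1, 17.003 and 22.7 in macrophages stood against 58.8, 129 and 39.9 in neutrophils (log2 difference -1.24, SE 0.45, adjusted p = 0.0203). Both calls rested on few libraries. Without macrophage control replicate 2 or neutrophil control replicate 3 the control difference was -0.97 (adjusted p = 0.0678) or -0.99 (0.064), and without neutrophil cisplatin replicate 2 or macrophage cisplatin replicate 3 the cisplatin difference was -0.78 (adjusted p = 0.184) or -1.02 (0.0716). Srxn1 (2:152105516-152111376), whose product restores over-oxidised peroxiredoxins, did not pass under any treatment. Its control values were 177, 101, 306 and 340.4 in macrophages and 203, 216, 361 and 236 in neutrophils (95% interval of the log2 difference -1.05 to 0.56), and its widest range within a group was 236 to 778 in macrophages under anti-CSF-1R.

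**Figure D3:**
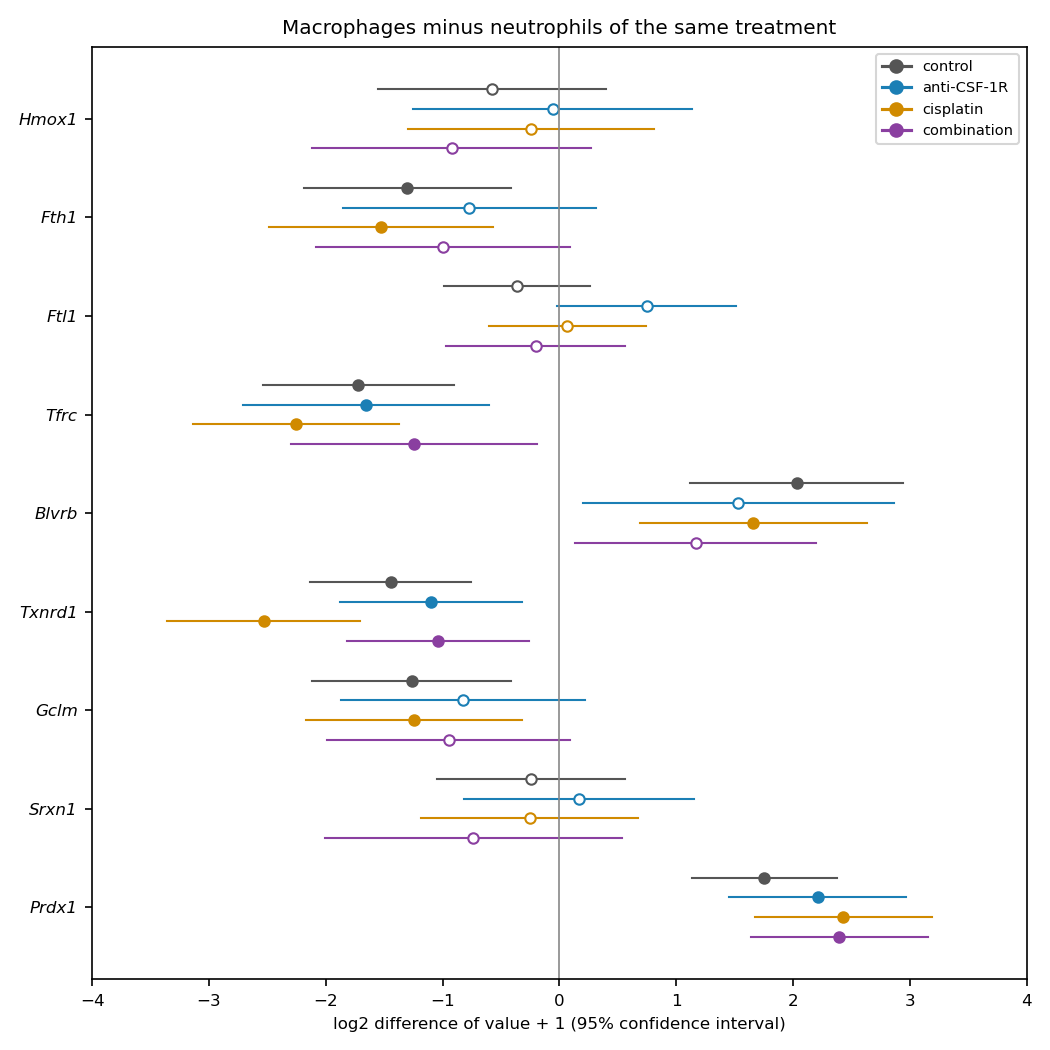
Log2 difference between macrophages and neutrophils of each gene under each of the 4 treatments, with 95% intervals from limma, and filled points where the threshold was passed. Values above 0 are higher in macrophages: Prdx1 lies from 1.76 to 2.43 and Tfrc from -2.26 to -1.24, and every Hmox1 interval includes 0.

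Among treatments within a cell type, none of the 9 members passed the threshold of limma in any of the 10 comparisons. These comparisons share control, cisplatin or anti-CSF-1R libraries with one another, and those of a cell type share 1 fit, so they are not independent results. The share of all genes that passed was small too. In macrophages it was 3.6% for anti-CSF-1R against control, 0.467% for cisplatin against control, 3.18% for the combination against control, 3.6% for the combination against cisplatin and 0% for the combination against anti-CSF-1R. For the last of these 838 of 8965 genes had an unadjusted p under 0.05 and limma-voom on decoded reads called 67. In neutrophils the shares were 0.142%, 0.0987%, 1.16%, 0.0877% and 0.0548% in the same order. The members with an unadjusted p under 0.05 numbered 3, 2, 0, 1 and 0 in macrophages and 1, 1, 1, 0 and 1 in neutrophils in that order. With limma-voom 1 member passed in the combination against cisplatin in macrophages, and 0 in each of the other 9 comparisons.

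In macrophages under anti-CSF-1R against control, 7 of 9 members had higher means on the log2 scale, with a median log2 difference of 0.64 where that of all genes was 0.03, and none passed. The ferritin chains had some of the largest differences. Ftl1 was 4259.8 to 6848 in the 4 control libraries and 9773 and 12575 in the 2 anti-CSF-1R libraries, without overlap (log2 difference 1.07, SE 0.33, 95% interval 0.36 to 1.78, adjusted p = 0.0856). Without macrophage control replicate 4 the adjusted p was 0.0445 at a difference of 1.19. Fth1 differed by 1.04 (SE 0.43, adjusted p = 0.172), with 15706 in an anti-CSF-1R library below the highest control library at 16233, and quantile normalisation turned the difference to -0.19 (adjusted p = 0.777). Tfrc went the other way, at -1.21 (SE 0.46, adjusted p = 0.149), with the groups overlapping by 1 library. The other members had intervals that include 0, among them Hmox1 (-1.18 to 0.85), Srxn1 (-0.04 to 2.12) and Prdx1 (-0.06 to 1.35). Macrophage anti-CSF-1R replicate 2, the library with mast cell markers, had the highest macrophage value of 6 members (Fth1, Ftl1, Txnrd1, Gclm, Srxn1 and Prdx1) and the lowest of Tfrc. Without it the log2 differences were 0.89 for Ftl1 (adjusted p = 0.481), 0.75 for Fth1 (0.659), -0.68 for Tfrc (0.693), 0.19 for Txnrd1, 0.18 for Srxn1, 0.30 for Prdx1 and -0.13 for Gclm. Eosinophil markers also moved with anti-CSF-1R: the 5 in the table summed to 67.24 and 106 in the anti-CSF-1R macrophages, 98.45 and 217.4 under the combination and 6.659 to 20.9 in the other macrophage libraries. The part of these cells in the member differences was not tested.

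Txnrd1 had the largest differences of any member around cisplatin in macrophages. It was 168 and 110.1 in the 2 decoded cisplatin libraries, below the 256, 529.5 and 567 of the 3 decoded control libraries and the 394 and 488 of the combination. The groups did not overlap in either comparison, but undecided values limit both, since cisplatin replicates 1 and 2 and control replicate 1 were left out. The cisplatin values were 30.3 (probability 0.591) or 303 and 42.0 (probability 0.709) or 420, and at the higher places they overlap both other groups. Against control the log2 difference was -1.64 (SE 0.39, 95% interval -2.49 to -0.79, adjusted p = 0.121). For the combination against cisplatin it was 1.68 (SE 0.43, 95% interval 0.75 to 2.61, adjusted p = 0.0532). Both were close enough to the threshold for the setting to decide. The first passed without macrophage control replicate 2 (-2.004, adjusted p = 0.0462) and with every value at its most probable place (-2.46, 0.0473), and the second passed in 7 of 19 alternatives, among them without macrophage cisplatin replicate 2 (1.68, 0.0386), the most probable places (2.63, 0.0201) and limma-voom (2.49, 0.0255). With undecided values at their higher place the differences were -0.81 (adjusted p = 0.5) and 0.99 (0.256). Neutrophil markers in macrophages differed along the same comparisons. The 11 in the table summed to 254.9 to 1567 under control, 196 to 392.4 under cisplatin, where Ngp was at the lowest listed value in all libraries, and 1357 to 1508 under the combination, where Camp was. Of the 8 tested, 2 passed as lower under cisplatin than under control, and 4 passed as higher under the combination than under cisplatin. Other markers moved as well: 4 of 12 macrophage markers were lower under the combination than under cisplatin, 2 of 3 eosinophil, 1 of 4 fibroblast and 1 of 2 endothelial markers were higher, and 1 of 3 mast cell and basophil markers was lower under cisplatin than under control. Txnrd1 was higher in neutrophils, and the part of RNA from other cells in these differences was not tested. Tfrc under cisplatin differed from control by -1.11 (SE 0.38, adjusted p = 0.301), and Hmox1 by -0.51 (95% interval -1.34 to 0.32).

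The combination against control in macrophages gave a median log2 difference of 0.04 for the members, with 5 higher and 4 lower. Hmox1 was at -0.67 (95% interval -1.68 to 0.35), Fth1 at 0.84 (-0.07 to 1.75) and Ftl1 at 0.51 (-0.19 to 1.22). Fth1 was higher in both combination libraries, 15323 and 18151, than in the 4 cisplatin libraries, of which the highest was 10759 (log2 difference 0.89, SE 0.43, adjusted p = 0.258). Against anti-CSF-1R alone 8 of 9 members had lower means under the combination, with a median of -0.50. Without macrophage anti-CSF-1R replicate 2 the count was 6 of 9 and the median -0.14, with Fth1 at 0.09 and Gclm at 0.24, both turned in sign, Ftl1 at -0.37 and Tfrc at 0.06.

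In neutrophils Tfrc came nearest to a change under anti-CSF-1R. The 3 decoded anti-CSF-1R libraries, 154, 101 and 87.4, lay below all 4 control libraries, of which the lowest was 155, so the groups met almost exactly (log2 difference -1.27, SE 0.40, 95% interval -2.11 to -0.44, adjusted p = 0.284). The lack of overlap depends on leaving out replicate 1, which at its most probable value of 206 lies above that control library, and the most probable places gave -1.05 (adjusted p = 0.521). Under the combination Tfrc was at -1.10 against control (SE 0.40, adjusted p = 0.189), with 160.0 in 1 library above that lowest control value. Combination replicate 3 was left out, and its possible values given above lie below and above all control libraries. Without neutrophil cisplatin replicate 2 and combination replicate 2 the Tfrc difference was -0.84 (adjusted p = 0.496). Under cisplatin the Tfrc interval was -1.40 to 0.27, with 349 in 1 library and 92.7 in another. Prdx1 was 99.9 and 97.0 in the 2 decoded cisplatin libraries and 157 to 229 in the control libraries (log2 difference -0.93, SE 0.38, adjusted p = 0.529). The cisplatin library left out was most probably at 189.6 (probability 0.934), within the control range, which gave -0.61 (adjusted p = 0.637). Txnrd1 was also lower without overlap under cisplatin, 682 to 1009 against 1037 to 1273 (log2 difference -0.55, SE 0.32, adjusted p = 0.628). Txnrd1 under the combination against anti-CSF-1R differed by -0.68 (95% interval -1.30 to -0.07, adjusted p = 0.418). The intervals of Hmox1 against control were -1.68 to 0.32, -1.93 to 0.24 and -1.32 to 0.68 under anti-CSF-1R, cisplatin and the combination. The median log2 difference of the members against control was 0.19, -0.31 and -0.20 in these treatments.

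**Figure D4:**
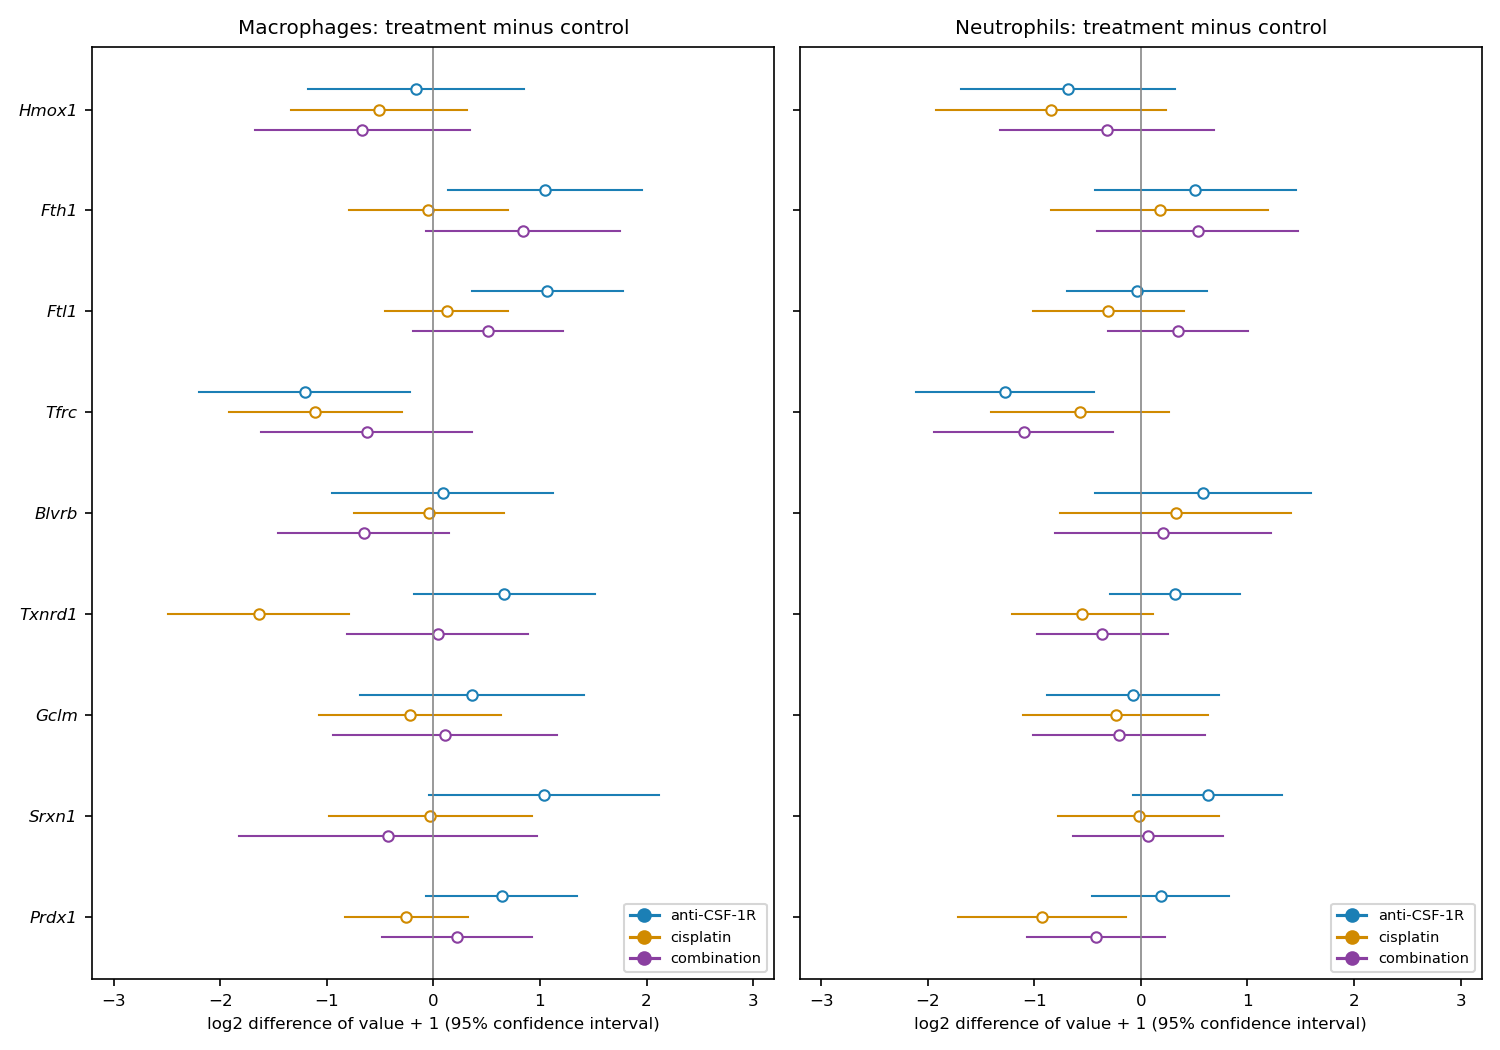
Log2 difference from control of each gene under anti-CSF-1R, cisplatin and the combination, in macrophages (left) and neutrophils (right), with 95% intervals from limma and open points because none passed. No gene passed the threshold: the largest difference from control was that of Txnrd1 under cisplatin in macrophages, at -1.64, and in neutrophils that of Tfrc under anti-CSF-1R, at -1.27.

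Whether a treatment acted differently in the 2 cell types was tested as the difference of the effects. None of the 9 members passed for anti-CSF-1R, cisplatin or the combination, where 0.215%, 0.131% and 0.0307% of all genes did, and limma-voom called 0 members in each. The members with an unadjusted p under 0.05 numbered 1, 1 and 0. They were Ftl1, whose anti-CSF-1R effect was 1.11 higher in macrophages on the log2 scale (95% interval 0.12 to 2.10, adjusted p = 0.455), and Txnrd1, whose cisplatin effect was different by -1.09 (95% interval -2.16 to -0.01, adjusted p = 0.689). Tfrc had an interval of -1.27 to 1.40 for anti-CSF-1R, so its lower values under that antibody in both cell types were not shown to differ in size. Without macrophage anti-CSF-1R replicate 2 the anti-CSF-1R effects differed by 0.93 for Ftl1 (adjusted p = 0.921) and by 0.59 for Tfrc, and neither passed.

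In the wider pathways, genes passed in both directions between the cell types. Their shares were near that of all genes under control antibody and above it under the other treatments, which was not tested. Of 36 measured genes of iron and haem handling, 10 were higher and 9 lower in macrophages under control antibody, with a median log2 difference of 0.24, where 51.3% of all genes passed. The lower ones included Steap4, a metalloreductase (12.7 ± 9.32, SD, n = 3, in macrophages and 1185.5 ± 264, SD, n = 4, in neutrophils, log2 difference -6.61, adjusted p = 1.91e-09), and Slc25a37, the mitochondrial iron importer (52.8 ± 19.98, SD, n = 4, against 347 ± 157, SD, n = 4, log2 difference -2.68, adjusted p = 1.45e-07). Hp, which binds free haemoglobin, and Lcn2, a siderophore-binding protein that is also one of the neutrophil markers here, were lower in macrophages, at -6.29 and -6.55 on the log2 scale (adjusted p = 5.91e-08 and 3.38e-07). Of 45 measured antioxidant and NRF2 target genes, 10 were higher and 12 lower in macrophages, with a median of 0.23. The lower ones included Gsr, glutathione reductase (87.4 ± 84.2, SD, n = 4, against 1573 ± 182, SD, n = 4, log2 difference -4.56, adjusted p = 5e-09), and Slc7a11, the cystine importer (391 ± 343, SD, n = 4, against 5639 ± 1271, SD, n = 4, log2 difference -4.17, adjusted p = 2.97e-08). Txnip, which binds thioredoxin, and Prdx6, a peroxidase that uses glutathione, were lower too, at log2 differences of -3.65 and -2.21 (adjusted p = 1.6e-12 and 4.16e-07). These 8 calls held in all alternatives. Under anti-CSF-1R, cisplatin and the combination the iron genes split 9 higher and 11 lower of 35, 13 and 10 of 36, and 11 and 10 of 34, and the antioxidant genes 13 and 11 of 44, 16 and 13 of 45, and 13 and 14 of 45, where 42.8%, 56.8% and 46.7% of all genes passed.

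Between treatments few genes of these lists passed, as was so for all genes. In macrophages 3.6% of all genes passed for anti-CSF-1R against control, 3.18% for the combination against control and 3.6% for the combination against cisplatin, and in neutrophils 0.0548% to 1.16% did. Under anti-CSF-1R against control, Trf, the iron carrier transferrin, rose to 1973 ± 727 (SD, n = 2), with 722 ± 312 (SD, n = 4) in control macrophages (log2 difference 1.497, adjusted p = 0.041), and Urod, an enzyme of haem synthesis, fell to 7.43 ± 3.33 (SD, n = 2), with 26.7 ± 7.61 (SD, n = 4) in the same controls (log2 difference -1.73, adjusted p = 0.0177), of 34 iron genes tested. Mgst1, a membrane-bound glutathione transferase and peroxidase, rose to 119 ± 42.0 (SD, n = 2) under anti-CSF-1R, where control macrophages had 22.8 ± 8.36 (SD, n = 3) (log2 difference 2.35, adjusted p = 0.0139), the 1 gene of 44 antioxidant genes that passed. Under the combination against control Mgst1 rose to 118 ± 32.8 (SD, n = 2, log2 difference 2.37, adjusted p = 0.0141) and Tkt, transketolase of the pentose phosphate pathway, fell by 0.90 on the log2 scale (adjusted p = 0.0411), of 45 tested. Under the combination against cisplatin Ephx1, an epoxide hydrolase, and Mt2, a metallothionein, fell by 2.25 and 1.90 (adjusted p = 0.0367 and 0.041). All of these calls were lost in some alternatives, from 2 of 19 for Mgst1 under the combination to 11 of 19 for Trf. The decoding used the same groups that were then compared. Decoded without the groups, Trf (adjusted p = 0.0646), Tkt (0.0628) and Mt2 (0.0662) did not pass. Urod and Ephx1 lost their calls as well in that setting, at differences of -1.32 and -1.80. Without macrophage anti-CSF-1R replicate 2 the differences were 1.11 for Trf (adjusted p = 0.413), -2.14 for Urod (0.0512) and 2.72 for Mgst1 (0.0778), and without replicate 1 they were -1.32 for Urod (0.0761) and 1.99 for Mgst1 (0.061). Without macrophage control replicate 1 Mgst1 was at 2.02 (adjusted p = 0.0508) and Trf at 1.41 (0.089), and Trf was at 1.27 (0.0949) and 1.56 (0.0545) without control replicate 2 and 3. The combination calls were lost without combination replicate 1 or 2, at adjusted p = 0.0686 and 0.219 for Mgst1, 0.163 and 0.374 for Tkt, 0.106 and 0.305 for Ephx1 and 0.256 and 0.194 for Mt2. Tkt was also lost without control replicate 1, 2 or 3 (adjusted p = 0.0668, 0.0623 and 0.0801), Ephx1 without cisplatin replicate 1, 3 or 4 (0.0554, 0.102 and 0.128) and Mt2 without cisplatin replicate 1 or 3 (0.0818 and 0.0779). In neutrophils 0 genes of either list passed in limma in any of the 5 comparisons, with 1 to 5 genes per list and comparison at an unadjusted p under 0.05 and 0 called by limma-voom. In macrophages cisplatin against control also gave 0 in both lists (7 genes of each at an unadjusted p under 0.05, 0 by limma-voom). The combination against cisplatin gave 0 iron genes (5 at an unadjusted p under 0.05), where limma-voom called 2 higher, and the combination against control gave 0 iron genes (8 at an unadjusted p under 0.05, 0 by limma-voom).

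After the cell type means were subtracted, 32 of 36 pairs of members had a Pearson correlation above 0 over libraries, with a median of 0.396 and a range of -0.324 to 0.781. Of all pairs among the 4676 genes with a value in every library 50.5% were above 0, with a median of 0.0033. Tfrc, Blvrb, Txnrd1, Srxn1 and Prdx1 lack a value in some library and are outside that set, so the sets are unlike. Without macrophage anti-CSF-1R replicate 2 the members' count was 33 of 36 and the median 0.353, and in macrophages and neutrophils alone it was 30 and 31 of 36, with medians of 0.461 and 0.251. Single pairs differed between the cell types, as Fth1 with Prdx1 did, at 0.875 in macrophages and -0.07 in neutrophils. These values are a description over 22 to 27 libraries, or 7 to 12 in macrophages alone and 12 to 15 in neutrophils alone. The genes of a pair share the depth and the treatment of each library. The genes most like Fth1 among 8649 compared were Prdx5 (r = 0.882), a peroxiredoxin, Map1lc3b (0.880), an autophagy protein, and Tbk1 (0.866), a kinase, each over 27 libraries. The genes most like Txnrd1 among 4803 compared were Malt1 (0.920), Sqstm1 (0.876) and Plxnc1 (0.853), each over 24 libraries, of which 9 were macrophages. Rilpl2 (0.833 over 26 libraries), Nfkb1 (0.794 over 25) and B4galt5 (0.792 over 26) were most like Prdx1 among 7882 compared. For Hmox1 the nearest were Gfi1b (0.728 over 25 libraries), Rbm38 (0.726 over 26) and Wdr81 (0.719 over 27), and Gfi1b followed it only in neutrophils (r = 0.903 over 13 libraries, against -0.00244 over 12 macrophage libraries), at a low level of 1 to 40.8.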

How the data were processed

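Sorted neutrophils and macrophages gave 27 libraries in 8 groups. Per the labels' protocols, 10 ng of total RNA went into each library with NuGen's Ovation RNA-seq V2 and Encore Rapid kits, and an Illumina HiSeq read them. The submitters' processing notes list the build mm10 and the tools DESeq2, R (3.3.1), Partek (6.6), TopHat2 (2.0.11) and CASAVA (1.8), and their roles are not stated there. The deposited values are a signal, the authors' read counts after division by 1 size factor for each library, as the whole-read steps in the values show. Below 1000 many values lack their decimal point, and 90.96% of cells had a form in which this can happen. The point was put back where whole reads resulted, within 0.0241 reads, and a negative binomial model fitted by gene and group weighed the possible places. Cells whose best place had a probability under 0.95 (5.075% of all) were dropped, and by this model 0.126% of all cells are kept at a wrong place. The planned test was used on the decoded values.

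Tests used limma 3.58.1 (R 4.3.3), two-sided, with lmFit and a trended eBayes on log2(value + 1), for genes that reached 10 in at least 2 libraries. Treatments were compared in 1 fit per cell type, and cell types and differences of effects in 1 fit of the 8 groups, 17 comparisons in all. The Benjamini-Hochberg adjustment ran over all genes tested, with a threshold of 0.05. The log2(value + 1) scale understates changes of low genes. Members and lists were chosen with earlier results of these data known. The rule for named genes took the members and the 3 genes with the highest correlation with Hmox1 and with Fth1. It also took up to 4 genes per list and comparison with the smallest p among those past the threshold. Part of these are named. The genes most like Txnrd1 and Prdx1 are named outside this rule. Replicates are numbered here by sample order, which pairs none of them.

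On simulated data, for macrophage anti-CSF-1R against control (8926 genes), 5.26% of the 2-fold and 47.6% of the 4-fold changes were called, with 8 of 63 calls false. For neutrophil anti-CSF-1R against control (8944 genes) these shares were 16.7% and 85.5%, with 17 of 126 calls false. Of kept cells 0.0923% and 0.113% were wrong. The spread between libraries was assumed in this simulation, and genes were changed only in the anti-CSF-1R groups. Most 2-fold changes were missed in it, so a 2-fold change of a member between treatments would also often have been missed. Each library was left out in turn, and the decoding, scaling, filter, pseudocount, threshold, library weights, groups in the fit and limma-voom were varied. Promoter windows came from RefSeq and positions from GENCODE vM21. Scripts ran in Python 3.11.15 with pandas 2.3.3, numpy 2.4.6, scipy 1.17.1 and, for figures, matplotlib 3.10.9.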

Additional observations from a re-analysis of the deposited data

Results flagged for a closer look

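Of 38 member groups of 4 libraries, 2 had a library far from the other 3, and chance gives about 1 in 20 such groups. Tfrc in macrophage cisplatin replicate 1 was 75.3, where the other 3 libraries of the group were at 28.4 to 30.2. Blvrb in neutrophil anti-CSF-1R replicate 1 was 12.5, where the other 3 were at 27.7 to 29.3.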

How the results depend on the processing

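Of 371 alternative counts of members past the threshold over the 17 comparisons, 353 stayed within 1.5 times the reported count and 18 did not. For macrophage anti-CSF-1R against control the count of 0 became 1 at a threshold of 0.1, and leaving out 1 library at a time gave 0 to 1. For macrophage cisplatin against control 0 became 1 with library weights and with every value at its most probable place, and leaving out 1 library gave 0 to 1. For the macrophage combination against cisplatin 0 became 1 with quantile normalisation, with only the groups compared in the fit, with library weights, at a threshold of 0.1, with the most probable places and with limma-voom, and leaving out 1 library gave 0 to 1. For the cell types under anti-CSF-1R the count of 3 became 1 with undecided values at their lower place, a setting added after seeing the data, and leaving out 1 library gave 2 to 4. Under the combination 3 became 1 with quantile normalisation, the most probable places and limma-voom, and leaving out 1 library gave 1 to 4. The cause of these moves was not tested. Of 882 alternatives of single genes 768 kept direction and side of the threshold, 88 lost the call, 25 gained it, and 1 turned direction: Fth1 in macrophages under anti-CSF-1R against control, at -0.19 with quantile normalisation. No paired analysis was possible because the labels number no replicates. Depth limits the low members most, since 1 read was worth 0.215 to 2.08 and 1 misplaced point in Blvrb, Gclm or Tfrc moves a value by 10 times.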
